A study of Homo sapiens with 4 samples.

Results

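The keratin gene clusters of DU145, an established human line of prostate cancer cells that came from a metastasis in the brain, were examined in 2 lists of chromatin immunoprecipitation sequencing peaks. One list maps CTCF, the zinc finger protein of insulators and of chromatin loop anchors. The other maps histone H3 acetylated at lysine 27 (H3K27ac), a mark of active promoters and enhancers. Members were all peaks whose summit lay in the type II keratin cluster, chromosome 12 from 52.53 to 53.36 Mb, or in the type I cluster, chromosome 17 from 38.80 to 39.79 Mb (hg19). These were 126 of 86516 peaks: 38 CTCF and 51 H3K27ac peaks in the type II cluster, and 12 CTCF and 25 H3K27ac peaks in the type I cluster. The series holds 4 libraries, CTCF, H3K27ac and input chromatin of DU145 and input chromatin of LNCaP, a prostate cancer line from a lymph node metastasis. No treatment separated them. Input reads were not analysed here. There is 1 library per mark and hence no replicate error, and no test was possible. Intervals below cover counting error only.

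Keratins form the intermediate filaments of epithelial cells, and each filament pairs a type I with a type II keratin. Most type II genes lie side by side on chromosome 12 and most type I genes on chromosome 17; the type I gene KRT18 is an exception and lies beside its type II partner KRT8. Simple and glandular epithelia, among them the luminal cells of the prostate, are known for KRT8, KRT18 and KRT19. Basal cells of stratified epithelia and of the prostate are known for KRT5, KRT14 and KRT15, and KRT17 is known for basal and wounded epithelium. In the RefSeq gene order of GRCh38.p14, the type II run from KRT80 to KRT18 holds 27 keratin genes. The type I run from KRT222 to KRT17 holds 28 keratin genes and 34 genes of keratin-associated proteins, which are hair proteins. Positions in hg19 were used for 8 genes, rounded to 1 kb; the others are named here only by their order between them, and exons and introns were not placed.

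Of these 8 genes, KRT5 and KRT8 have a start in the RefSeq promoter table (GRCh38.p14); KRT80, KRT18, KRT15, KRT19, KRT14 and KRT17 do not. The 250 bases before both starts are shown for a basal gene and a gene of simple epithelia in the same cluster. KRT5 had 0 H3K27ac peaks on its body and KRT8 had 3. These 3 lie on the 8 kb KRT8 used here, whose start is not the KRT8 start shown. Both stretches are on the minus strand, written 5′ to 3′. The KRT5 stretch is chr12:52520395-52520644 and the KRT8 stretch chr12:52926470-52926719 in GRCh38.p14. Capitals mark an ATAAAA match.

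KRT5: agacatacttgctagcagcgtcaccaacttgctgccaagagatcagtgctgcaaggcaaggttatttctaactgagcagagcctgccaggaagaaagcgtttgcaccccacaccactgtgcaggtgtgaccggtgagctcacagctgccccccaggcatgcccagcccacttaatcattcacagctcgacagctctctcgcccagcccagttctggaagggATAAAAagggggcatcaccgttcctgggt

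KRT8: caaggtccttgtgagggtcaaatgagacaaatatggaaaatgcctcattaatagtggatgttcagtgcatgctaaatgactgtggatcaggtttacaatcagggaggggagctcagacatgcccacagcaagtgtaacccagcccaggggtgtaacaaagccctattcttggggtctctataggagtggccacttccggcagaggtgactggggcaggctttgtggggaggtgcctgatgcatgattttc

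The KRT5 stretch held its match, which resembles a TATA box, 29 bases before the start. The KRT8 stretch held no match to any motif searched. Its start is not the one at 53.299 Mb in hg19, so these are not the bases before the 8 kb gene used here. RefSeq gives KRT8 a span of 52.67 kb in GRCh38.p14 that overlaps KRT18 by 1006 bases. Where in that span the start shown lies was not placed. The table has 38 entries for 34 keratin genes of both clusters. TATAAA, the core of a TATA box, occurred on the coding strand in 19 of the 38 entries, against 6.80% of all 35116 entries in the table. The motif marked in KRT5 occurred on the coding strand in 20 of the 38, against 8.76%, and both motifs overlap where the longer run of TATAAAA is present. GGGCGG, the core of a GC box, occurred on either strand in 4 of the 38, against 42.6%. A search for the AP-1 motif TGANTCA on either strand found 0 of the 38, against 6.57%. The median GC content was 45% in the 38 keratin entries and 58% in all. These matches are descriptions of letters, not of bound sites.

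The type II cluster was denser in both marks than the autosomes, and the type I cluster was sparser than its own chromosome and flanks. The type II cluster had 45.8 CTCF peaks per Mb (exact Poisson 95% interval 32.4 to 62.8) and 61.4 H3K27ac peaks per Mb (45.8 to 80.8). All autosomes together had 12.4 and 17.5 per Mb, so the type II densities were 3.68 and 3.50 times higher. The type I cluster had 12.1 CTCF peaks per Mb (6.26 to 21.2) and 25.3 H3K27ac peaks per Mb (16.3 to 37.3). On chromosome 17 as a whole these densities were 22.3 and 45.5, so the cluster stood at 0.543 and 0.555 times its own chromosome. Against the autosomes the same densities were 0.975 times for CTCF and 1.44 times for H3K27ac. The autosomal density lay inside the type I counting interval for both marks. The 500 kb on either side of the type I cluster held 50 CTCF and 124 H3K27ac peaks in 1 Mb. The same flanks of the type II cluster held 52 and 87, so CTCF there was inside the interval of the cluster and H3K27ac above it. H3K27ac peaks covered 8.11% of the type II and 1.94% of the type I cluster, against 1.51% of the autosomes. They covered 7.27% of the type II flanks and 1.68% of chromosome 12. For the type I flanks and chromosome 17 the coverage was 9.60% and 3.89%, both above that of the type I cluster.

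**Figure D1:**
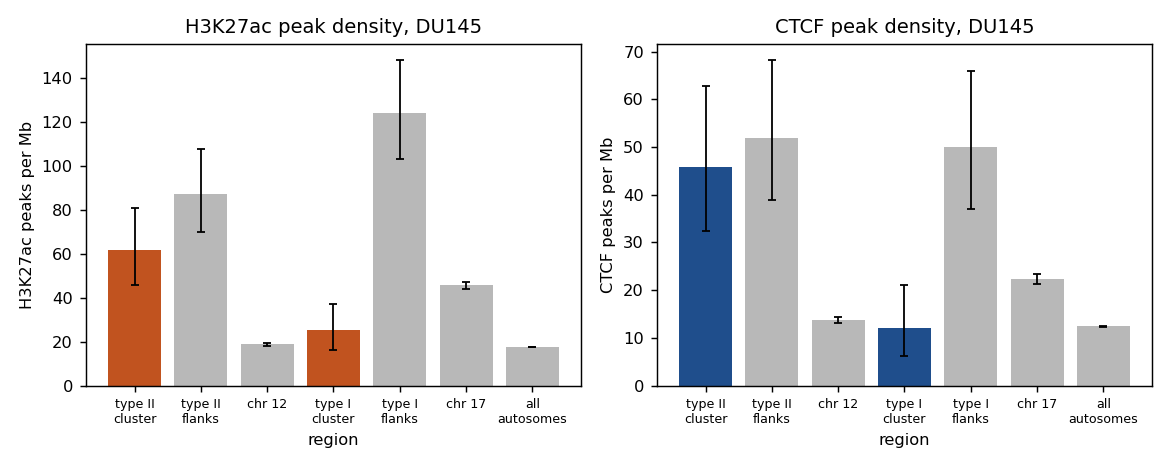
Peaks per Mb of H3K27ac (left) and CTCF (right) in the keratin clusters (coloured) and, in grey, in the 500 kb on either side, the chromosome and all autosomes; bars are densities in 1 library and error bars exact Poisson 95% intervals. The type I cluster, at 25.3 H3K27ac and 12.1 CTCF peaks per Mb, lies below its flanks at 124 and 50.

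By strength, the H3K27ac members were close to their list, and the CTCF members had a higher median than theirs. Fold enrichment is the authors' ratio of fragments at a summit to local background, with 1 added to both, and is used here only within a list. The median H3K27ac fold was 4.57 in the type II and 5.03 in the type I cluster, against 4.55 over the whole list. The median CTCF fold was 12.0 in the type II and 12.1 in the type I cluster, against 9.52. The flanks of 500 kb also had a higher median than the list, 12.6 for type II and 11.1 for type I. The median was 10.0 on chromosome 12 and 11.3 on chromosome 17. Of the CTCF members, 8 of 50 were in the upper 10% of their list by fold. By cluster these were 7 peaks, 18.4%, in type II and 1 peak, 8.33%, in type I. The upper group holds 10.0% of all CTCF peaks, 15.4% of those in the type II flanks and 22% of those in the type I flanks. Of the H3K27ac members, 7 of 76 were in the upper 10%, near the 10.0% of all H3K27ac peaks. Fragments at a summit, solved from the deposited values, had a median of 45 for type II CTCF, 64.5 for type I CTCF, 23 for type II H3K27ac and 27 for type I H3K27ac. The median local background at these summits was 2.72, 4, 3.70 and 4.35 fragments in the same order, against 3 over all CTCF and 3.89 over all H3K27ac peaks. The part of copy number or input in the densities was not tested.

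Of the 8 placed genes, KRT8, KRT18, KRT19 and KRT80 carried H3K27ac peaks on the gene body, and KRT5, KRT14, KRT15 and KRT17 carried 0. KRT7, another keratin of simple epithelia, was not placed. KRT18, transcribed from left to right, carried the second strongest H3K27ac peak of the type II cluster across its start. This peak, chr12:53341965-53345260, spanned 3296 bases with its summit 0.148 kb from the gene's left end. Its fold was 33.5 from 190 fragments (exact Poisson 95% interval 164 to 219), which ranked 825 of 50364. A weak second peak inside the gene had a fold of 3.16 from 14 fragments. Together they covered 65.9% of the 4 kb gene. A CTCF peak lay inside the gene near its far end, chr12:53345963-53346223, with a fold of 8.23 from 35 fragments.

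KRT8, the partner of KRT18, is transcribed towards the left and starts at 53.299 Mb. An H3K27ac peak of 2278 bases, chr12:53296561-53298838, lay over the 5′ part of the gene with a fold of 11.8 from 66 fragments (51.0 to 84.0). A small one followed just past the rounded start, chr12:53299021-53299308, with a fold of 4.24 from 23 fragments. The break between them measured 182 bases and held a CTCF summit at 53298974, within 0.026 kb of the rounded start. That CTCF peak had a fold of 21.0 from 91 fragments (73.3 to 112), stronger than 92.0% of the list. So a CTCF summit with acetylation on both sides stood at the rounded start of KRT8, while the CTCF peak of KRT18 lay 3.08 kb from its start. Because positions are rounded to 1 kb, the KRT8 start itself cannot be placed inside the break. A pair of H3K27ac peaks farther into KRT8, each with a fold of 4.07 from 16 fragments, brought the gene to 39.8% of its bases. The first of these, at the 3′ end, overlapped a CTCF peak of fold 8.90.

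Between the 8 kb KRT8 used here and KRT18 lay 44.0 kb with 3 H3K27ac summits and 1 CTCF summit. This interval falls inside KRT8 if the gene is given its longer RefSeq span, which overlaps KRT18. The largest acetylated region there, chr12:53317605-53321694, was 4090 bases wide, with a fold of 15.6 from 74 fragments (58.1 to 92.9). A CTCF peak of fold 9.54 lay within it near its right end. Left of KRT8, 4 CTCF peaks with folds of 16.0, 21.7, 14.2 and 13.7 stood between chr12:53259048-53259570 and chr12:53278485-53278987, 12.0 to 31.4 kb from the gene. The second of these, chr12:53264221-53264663, overlapped an H3K27ac peak of fold 3.71. An H3K27ac peak of fold 12.0, chr12:53267576-53268809, lay between the second and the third.

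**Figure D2:**
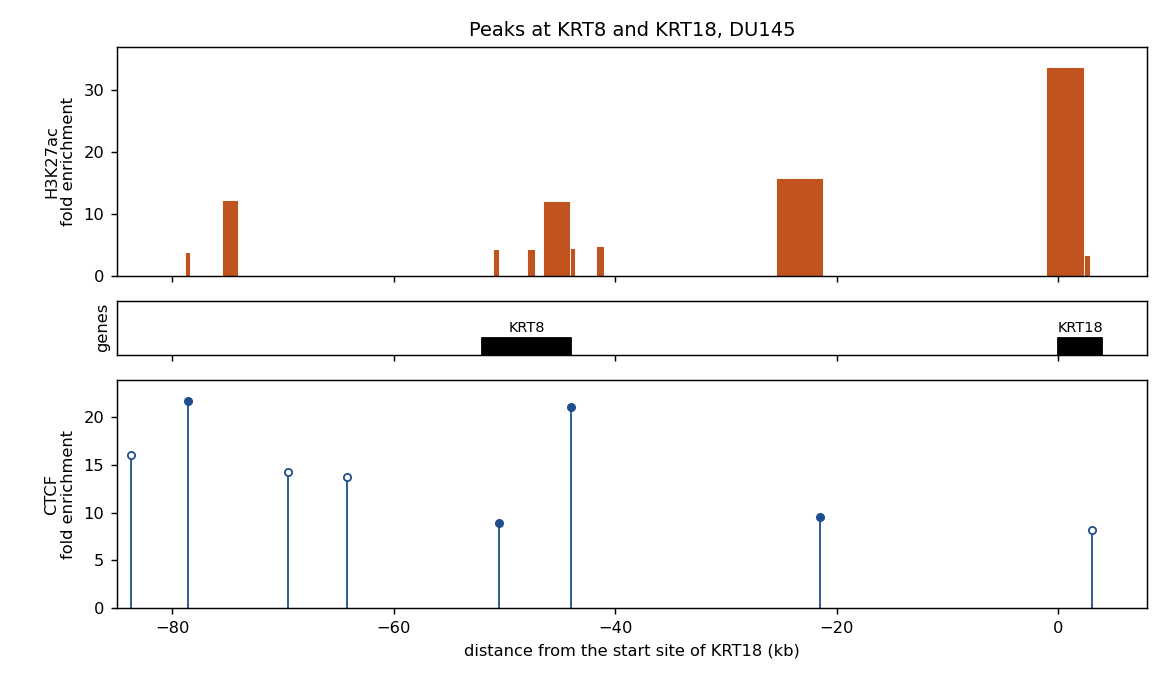
H3K27ac peaks (top, bar width is peak width), genes (middle) and CTCF summits (bottom) by distance in kb from the start of KRT18; heights are fold enrichments in 1 library each, and filled circles are CTCF peaks that overlap H3K27ac. The CTCF summit of fold 21.0 stands at the rounded right end of KRT8, its start, and the H3K27ac peak of fold 33.5 covers the start of KRT18.

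KRT19, a type I keratin of simple epithelia, had the highest share of acetylated bases of the 8 genes, 77.8% of its 5 kb. It is transcribed towards the left from 39.685 Mb. The rounded start lay inside the peak chr17:39684781-39686546, with a fold of 15.5 from 84 fragments (67.0 to 104). The neighbouring peak towards the gene body, chr17:39683126-39684674, had a fold of 23.9 from 103 fragments (84.1 to 125). A further 3 peaks lay wholly within the gene, with folds of 4.50, 5.03 and 4.09. Past its 3′ end came a peak of 2105 bases with a fold of 10.1, and upstream one of fold 7.23. Joined over gaps of up to 10 kb, 8 peaks formed a domain of 11.3 kb, chr17:39676178-39687429, with 8.63 kb in peaks and 0 CTCF summits. Ranked by the sum of fold times width, it was 997 of 19675 such domains in the genome, and it was the highest of 13 in the type I cluster. The nearest CTCF summit lay 20.3 kb upstream of the start.

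KRT15, a basal keratin, is the next gene past the 3′ end of KRT19, and had 0 H3K27ac peaks on its body. The nearest acetylated region was weak, chr17:39676178-39676505, with a fold of 3.35 from 13 fragments, 1.18 kb from the start of KRT15 at 39.675 Mb. It and the fold 10.1 peak fill 48.7% of the 5.00 kb between the genes. With 5 kb added on either side, 16.2% of the KRT15 window was acetylated.

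KRT80, a type II keratin, carried many small H3K27ac peaks. Its 23 kb touched 12 H3K27ac peaks, which covered 61.0% of it. The strongest, chr12:52584533-52588167, lay across the start at 52.586 Mb, with a width of 3635 bases and a fold of 18.8 from 135 fragments (113 to 160). In the cluster only 4 H3K27ac peaks had a higher fold. The other peaks on the gene had folds from 3.57 to 6.11, from 15 to 32 fragments at their summits. CTCF had 1 peak on the gene, chr12:52565850-52566178, with a fold of 9.59.

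Beyond the 3′ end of KRT80 stood the H3K27ac peak with the highest fold of the whole list, chr12:52537750-52547209. Its fold was 73.3 from 305 fragments (272 to 341). The local background of 3.18 was the lowest value of the list, shared by 30.6% of all H3K27ac peaks. By fragments it was not the highest, since H3K27ac peaks reached 311 on chromosome 12 and 568 in the whole list. This peak was the widest of both clusters at 9460 bases and ended 15.8 kb from KRT80. A CTCF summit of fold 30.9 (123 fragments, 102 to 147) lay inside it, towards the end that faces KRT80. Another CTCF peak, chr12:52537312-52537583, of fold 12.0, stood in the break of 513 bases between the wide peak and one of fold 4.31 to its left, and chr12:52550408-52550924, of fold 24.0, lay to its right. The 33 kb from the cluster's edge to KRT80 held 6 CTCF and 4 H3K27ac summits. The domain formed by the wide peak and the one to its left ranked 18 of 19675 by fold times width, but 614 by bases in peaks.

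**Figure D3:**
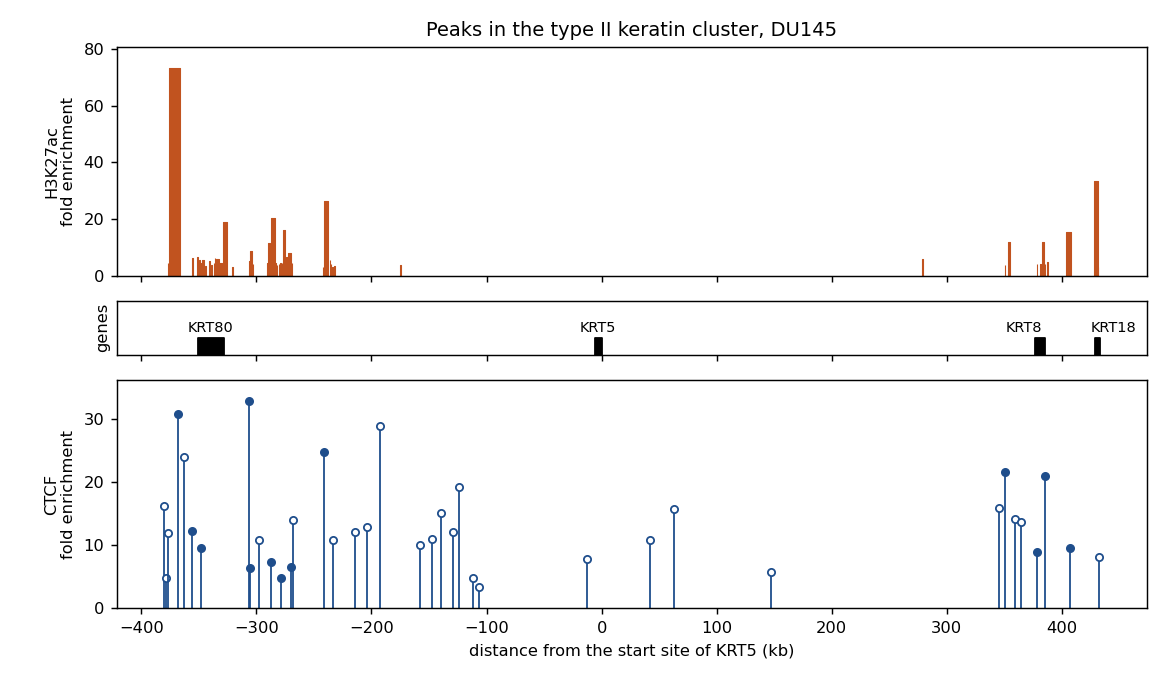
H3K27ac peaks (top), the 4 placed genes (middle) and CTCF summits (bottom) of the type II cluster by distance in kb from the start of KRT5; heights are fold enrichments in 1 library each, and filled circles are CTCF peaks that overlap H3K27ac. Acetylation is concentrated left of KRT5 around KRT80 and at the right end around KRT8 and KRT18, with 453 kb without a peak between.

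To the right of KRT80, RefSeq lists 11 keratin genes before KRT5: KRT7, KRT86, KRT81, KRT83, KRT85, KRT84, KRT82, KRT75, KRT6B, KRT6C and KRT6A. KRT7 is a keratin of simple epithelia, KRT81 to KRT86 are hair and nail keratins, and the KRT6 genes are known for wounded epithelium. In this stretch of 322 kb, all 24 H3K27ac peaks lay on the side of KRT80, up to 52739369. A domain of 13 peaks, chr12:52623529-52645169, spanned 21.6 kb with 15.8 kb in peaks and 3 CTCF summits, and ranked 417. Its strongest peaks were chr12:52626287-52630079, with a fold of 20.5 from 99 fragments (80.5 to 121), and chr12:52637426-52638918, with a fold of 16.3 from 81 fragments. A further domain, chr12:52671784-52681897, held 6 peaks. One of them, chr12:52672296-52676464, reached a fold of 26.2 from 168 fragments (144 to 195) over 4169 bases, and a CTCF summit of fold 24.8 from 135 fragments lay inside it. The last H3K27ac peak before KRT5 was an isolated one of fold 3.61, chr12:52739072-52739369. Which gene each of these peaks belongs to was not analysed here.

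All 6 members of at least 3 kb were in the type II cluster, among 51 H3K27ac peaks; 2.45% of all H3K27ac peaks are that wide. These were the peak of 9460 bases near KRT80, the peaks over the starts of KRT80 and KRT18, the one between KRT8 and KRT18, and the 3793 and 4169 base peaks of the stretch between KRT80 and KRT5. In the type I cluster the widest H3K27ac peak was the one of 2105 bases between KRT15 and KRT19.

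The basal keratin genes KRT5 and KRT14 had 0 H3K27ac peaks on their bodies and 0 within 10 kb. KRT5 lay in a stretch of 453 kb without an H3K27ac peak, chr12:52739370-53192320, longer than 97.9% of the 48978 gaps between H3K27ac peaks on the autosomes. There were 1007 longer ones. This share counts gaps by number, and long gaps hold more of the genome than their number. The nearest acetylated region was 169 kb from the gene. The stretch was not free of CTCF: 11 summits gave 24.3 per Mb, with a median fold of 10.9 and a highest fold of 19.2. Of these, 7 stood between 52755779 and 52807752, and the one nearest to KRT5, chr12:52900882-52901218, lay 6.78 kb from its 3′ end with a fold of 7.79. On the other side of KRT5, RefSeq lists 12 keratin genes before KRT8, from KRT71 to KRT78, among them KRT1 and KRT2 of the cornified skin and KRT4 of mucosa. These 377 kb held 3 H3K27ac peaks, which covered 0.581% of the bases. The left part of the cluster, up to the stretch, held 79.3% of its acetylated bases in 209 kb, and the right part 20.7% in 168 kb.

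KRT14, the filament partner of KRT5, lay in a stretch of 63.3 kb without an H3K27ac peak. The nearest acetylated region was 26.0 kb from it. A strong CTCF peak, chr17:39735745-39736171, with a fold of 19.5 from 67 fragments (51.9 to 85.1), stood 2.83 kb past its 3′ end. KRT17 had 0 H3K27ac peaks within 5 kb, and one at 6.41 kb, chr17:39768984-39769595, with a fold of 4.55, the median of the list, from 18 fragments. RefSeq places KRT16, a wound keratin, between KRT14 and KRT17, and this was the only H3K27ac peak among the 33.0 kb between them. A gene without a peak is not shown to lack acetylation, since the lists hold only peaks past the authors' threshold. The fewest fragments at the summit of an H3K27ac member were 12. Transcripts were not measured in these libraries.

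**Figure D4:**
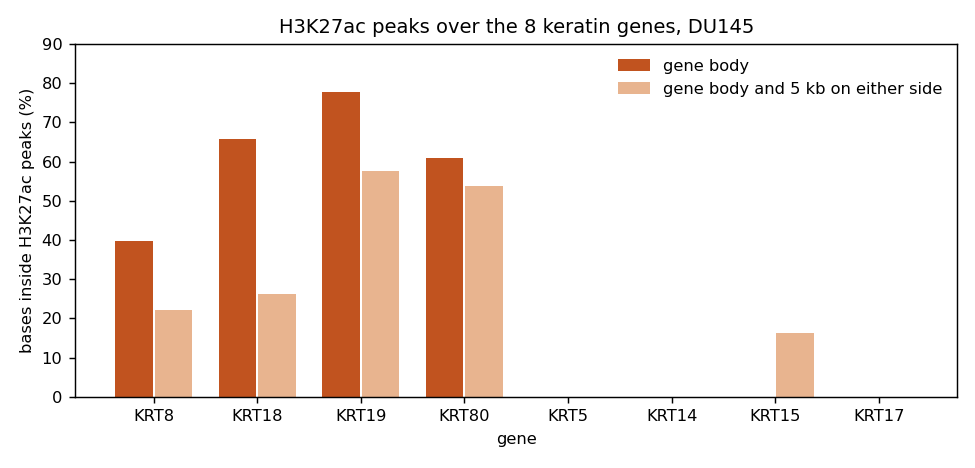
Percent of bases inside H3K27ac peaks for the 8 keratin genes, over the gene body (dark) and with 5 kb added on either side (light); 1 library, so no error bars. KRT8, KRT18, KRT19 and KRT80 range from 39.8% to 77.8% over the gene body, and KRT5, KRT14, KRT15 and KRT17 are at 0.

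Away from KRT19, H3K27ac peaks of the type I cluster stood alone or in small groups: 8 domains held 1 peak, 3 held 2 and 1 held 3. The 870 kb left of KRT15, where RefSeq lists 22 keratin genes and the 34 keratin-associated genes, had 13 H3K27ac and 10 CTCF peaks, and 1.00% of it was acetylated. The strongest, chr17:38803428-38804984, had a fold of 26.9 from 141 fragments (119 to 166) and lay 4.46 kb from the edge of the region. The next was chr17:39058670-39060032, with a fold of 11.8 from 75 fragments. Genes of other families were not counted or placed here, so the gene nearest to each peak is not given. The longest stretches without H3K27ac were 221 kb, chr17:39261468-39481978, and 170 kb, chr17:38804985-38974781. They held 2 CTCF summits each. The 221 kb stretch was longer than 95.5% of the autosomal gaps by number. Of the 13 domains in this cluster, 8 were single peaks, against 3 of 11 in the type II cluster. Over the genome 50.3% of domains were single peaks.

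**Figure D5:**
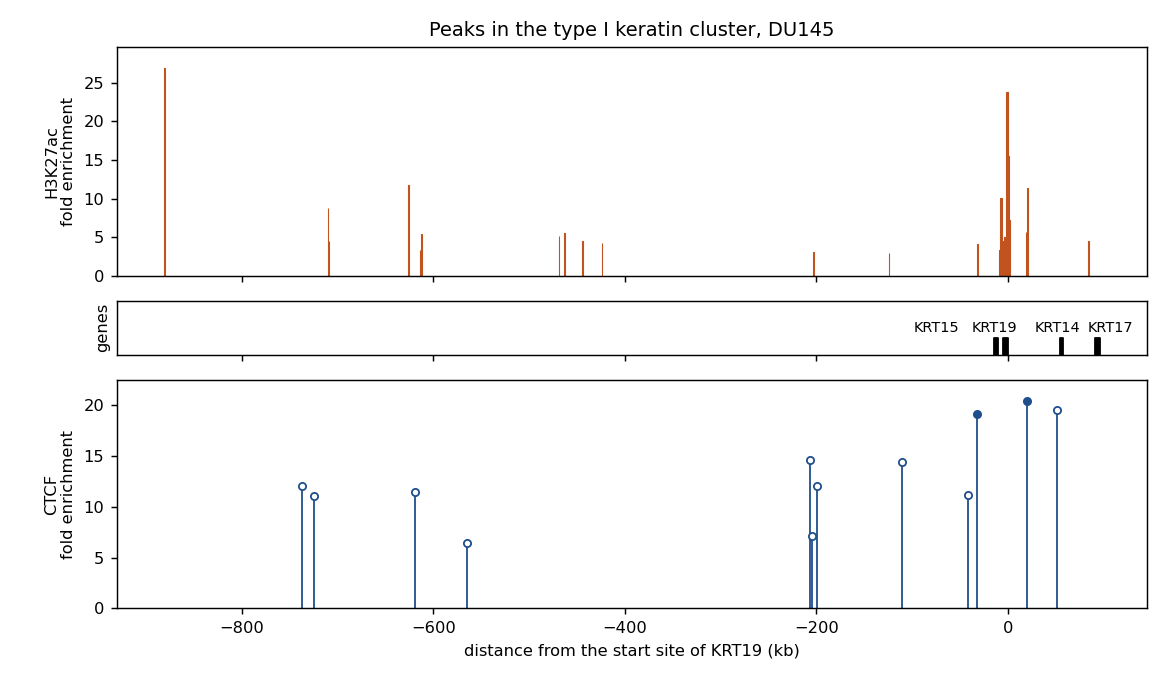
H3K27ac peaks (top), the 4 placed genes (middle) and CTCF summits (bottom) of the type I cluster by distance in kb from the start of KRT19; heights are fold enrichments in 1 library each, and filled circles are CTCF peaks that overlap H3K27ac. The 8 peaks around KRT19 form the domain with the most peaks, and KRT14 and KRT17 have none on them.

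The strongest CTCF sites of the type II cluster lay left of KRT5. They were chr12:52607273-52607702, with a fold of 33.0 from 114 fragments (94.0 to 137), rank 174 of 36152; the site of fold 30.9 inside the widest acetylated peak; and chr12:52721073-52721646, with a fold of 29.0 from 114 fragments, which stood 17.4 kb from the nearest H3K27ac peak. In the type I cluster the strongest were chr17:39705075-39705810, with a fold of 20.4 from 111 fragments (91.3 to 134), the site beside KRT14, and chr17:39652983-39653417, with a fold of 19.2 from 104 fragments (85.0 to 126). These 3 were the CTCF sites closest to KRT15, KRT19 and KRT14. Neighbouring CTCF summits were a median of 9.03 kb apart in the type II and 52.1 kb in the type I cluster, against 34.7 kb on the autosomes.

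CTCF and H3K27ac peaks met in both clusters. In the type II cluster 13 of 38 CTCF peaks shared at least 1 base with an H3K27ac peak, 34.2% (Wilson 95% interval 21.2 to 50.1), and in the type I cluster 2 of 12, 16.7% (4.70 to 44.8). Over the whole list the share was 14.2%, inside the type I interval and below the type II one. With stricter peak lists the type II share was lower. It was 24.2% (8 of 33) at a q limit of 10 on the −log10 scale. At or above the median fold it was 22.2% (6 of 27). The whole-list share under these limits is not given here. The type II flanks of 500 kb had 32.7%, inside the interval of the cluster. The type I flanks had 44% (22 of 50, 31.2 to 57.7), above the 16.7% of that cluster, with intervals that overlap. In the other direction 14 of 51 and 3 of 25 H3K27ac members overlapped CTCF, against 10.1% of all H3K27ac peaks. In the type II and type I flanks 17.2% and 15.3% did. A CTCF summit lay inside an H3K27ac peak at 6 of the 50 CTCF members, 12%, against 8.40% of the list. All 6 were in the type II cluster. The flanks had 14 of 52 for type II and 12 of 50 for type I. A CTCF peak lay within 1 kb of an H3K27ac peak at 19 of 50, 38%, against 19.9%. By cluster this was 44.7% in type II, near the 46.2% of its flanks. In type I it was 16.7% (2 of 12), against 50% in its flanks. A CTCF summit lay in a break of up to 500 bases between acetylated peaks at 4 of 50, 8%, against 1.68% of the list. The first of these 4 was the break at the rounded start of KRT8. The others were breaks of 230 bases at 52608417, 443 bases at 52644328 and 191 bases at chromosome 17, 39705296. The last lay between H3K27ac peaks of fold 4.56 and 11.4. The numbers are small, and no test was made.

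The edges of the regions were set by position. At the left edge of the type II cluster the CTCF folds were 16.2 inside and 17.2 outside, and at the right edge the H3K27ac folds were 3.16 inside and 5.11 outside. At the left edge of the type I cluster the strong H3K27ac peak of fold 26.9 was inside, and the next one outside lay 107 kb away with a fold of 3.11. At its right edge the H3K27ac folds were 4.55 inside and 7.42 outside.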

How the data were processed

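Bowtie and MACS2 were used and the build was hg19, per the submitters' processing notes; versions, settings and the choice of input as background are not given in the sources here. Per the labels, 1 library lies behind each list. For each peak the authors deposited positions, the summit, a score, a fold enrichment (ratio), and −log10 p and q values, with −log10 q at 1.31 or more. The score was not used.

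Members and lists were chosen with earlier results of these data known. Peaks were assigned by summit; positions count from 1. Overlap needed 1 shared base. Domains join H3K27ac peaks at most 10 kb apart. Fragments at a summit were solved from the deposited fold and −log10 p, with 1 added to fragments and background; at a tolerance of 0.002 on −log10 p, 100% of peaks of both lists gave a whole number, with CTCF fragments multiplied by 0.911. The solver and the overlap count were tested on simulated data. Chromosome lengths run from the first to the last peak. Named genes are the 8 with hg19 positions; named peaks are the 5 strongest per list and cluster, those of 3 kb or more, those at the genes, and those bounding long stretches. A few other peaks near these were named after their values were seen. Transcription directions of genes other than KRT5 and KRT8 are general knowledge. Intervals are exact Poisson or Wilson at 95%. Sequences and gene order are from RefSeq (GRCh38.p14), and no position was converted between builds. Alternatives were stricter peak lists, other overlap definitions, joining distances and gene windows. Python 3.11.15, pandas 2.3.3 and scipy 1.17.1 were used.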

Additional observations from a re-analysis of the deposited data

How the results depend on the processing

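Of 66 alternatives, 37 kept their value within its limits: a factor of 1.5 for numbers, the Wilson or Poisson interval for shares and densities, and an order-statistic interval for medians. The others moved as follows. With a −log10 q of 10 or more, H3K27ac peaks numbered 21 in the type II and 12 in the type I cluster, their median fold was 8.80 and 9.43, and they covered 5.99% and 1.24%. At or above the median fold of the list, the type II cluster had 28 H3K27ac peaks with a median fold of 6.42, and coverage was 6.81% and 1.55%. Keeping stronger peaks lowers counts and coverage and raises median folds in any set, so these moves describe the limits, not the clusters. The q limit kept 41.2% of type II and 48% of type I H3K27ac peaks, near the 43.4% of the list. With a CTCF summit inside an H3K27ac peak as the definition, 15.8% of type II and 0% of type I CTCF peaks counted, against 8.40% of the list. By the same definition 11.8% and 0% of H3K27ac members held a CTCF summit. The share over all H3K27ac peaks is not given here. Within 1 kb, 49.0% of type II H3K27ac peaks had CTCF, against 17.2% of the list and 25.3% in the type II flanks. Type II domains numbered 7 with a joining distance of 20 kb, against 11. The type I H3K27ac density was 1.44 times the autosomes, within its counting interval, but 0.555 times its chromosome, outside it. The gene window moved the acetylated share of 6 genes. Over 10 kb on either side it was 25.3% at KRT15 and 2.45% at KRT17. That KRT15 window takes in the whole body of KRT19, with its peak of fold 23.9, and the KRT15 body itself was at 0. KRT5 and KRT14 were at 0 in every window. Leaving out a replicate was not possible with 1 library per mark. No paired analysis was possible because each mark has 1 library and no test was made.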
